A study of Mus musculus with 10 samples.

Results

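Acyl-CoA thioesterases were followed gene by gene in cardiac endothelial cells (ECs) from mice fed a control or a ketogenic diet. The group consisted of 9 genes, Acot1, Acot2, Acot4, Acot7, Acot8, Acot9, Acot11, Acot13 and Them4, found by symbol among the 46983 genes of the deposited count table. The family was selected on the diet fold changes of these same counts, which were known when the genes were listed, so their fold changes and p-values below describe the data and are not independent evidence of a diet effect. The mice were wild-type male C57BL/6J animals that entered a diet group at an age of 8 weeks. One group of 5 received a control diet with 11.6% of its energy as fat, and the other group of 5 received a ketogenic diet with 89.5% of its energy as fat, each for 14 days. The labels name no other agent and no genetic change in either group. Cells were taken from the heart with magnetic beads carrying an antibody against CD31, a surface protein of ECs, and polyadenylated RNA was amplified and sequenced as single reads of 50 bases, with 1 library from each mouse and no record of the strand.

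Long-chain fatty acids are activated to acyl-CoA esters before they can be oxidized, stored or built into membranes. Acyl-CoA thioesterases work in the opposite direction: they hydrolyse the ester to a free fatty acid and coenzyme A. Because acyl-CoA cannot cross membranes freely, each compartment has its own enzymes, with type I proteins such as ACOT1, ACOT2 and ACOT4 and type II proteins with a hotdog fold such as ACOT7, ACOT9, ACOT11, ACOT13 and THEM4. In liver and heart, Acot1 and Acot2 are well-known targets of the fatty acid receptor PPARα.

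Sequencing depth, as reads assigned to genes, was 10885154 to 12710861 in the 10 mice. All 10 EC markers examined, Pecam1 and Cdh5 among them, were detected, and their summed normalized counts lay between 55375.9 and 62441.6. Markers of other cell types were present too. The 8 markers of mural (vessel wall) cells summed to 28796.5 to 31134.1 on the control diet and 27781.8 to 31029.0 on the ketogenic diet. The 8 fibroblast markers summed to 8215.2 to 9135.8 and 7937.9 to 9682.4. No marker of either type had an adjusted p under 0.05, and their part in the thioesterase values was not tested. The 10 cardiomyocyte markers were detected in these preparations as well, with none at 0 in all mice. Their summed normalized counts ranged from 5629.0 to 7575.1 on the control diet and from 6870.3 to 9949.2 on the ketogenic diet, and 9 of the 10 had a higher mean on the ketogenic diet, although none passed the adjusted test. The mean z-score of these markers was higher by 1.06 on the ketogenic diet (two-sided exact permutation test, p = 0.0556, n = 5 per diet, smallest possible p = 0.00794), and p fell to 0.0397 without control mouse 3 and to 0.0238 without ketogenic mouse 1. The summed count of 8 macrophage markers was 7237.3 in control mouse 1, against 2202.4 to 3594.0 in the other control mice. Of the 7 macrophage markers tested, 6 had a negative log2 fold change, with a median of −0.47. None had an adjusted p under 0.05 and 4 had an unadjusted p under 0.05 in edgeR's quasi-likelihood test. Among all 15949 tested genes, 8204 had a negative log2 fold change and 2844 had an unadjusted p under 0.05. The part of the macrophage markers in the thioesterase values was not tested. Of 8 lymphocyte markers, with summed counts of 3009.0 to 4427.0 on the control diet and 2492.7 to 3003.0 on the ketogenic diet, 5 had a negative log2 fold change, and Cd79a, a chain of the B cell receptor, fell (log2 fold change −0.46, adjusted p = 0.0221 in edgeR's quasi-likelihood test). In RNA from a mixed preparation of this kind, fewer cells of a type and less RNA per cell cannot be told apart.

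Of the 9 thioesterase genes, Acot7 and Acot2 were higher on the ketogenic diet, Acot8 was lower, and the remaining genes did not pass the test. Acot7 rose 1.67-fold, Acot2 rose 1.2-fold and Acot8 fell to 0.837 of its control level. Acot1 had the largest estimated change, 2.33-fold, but rested on 5 to 36 reads per mouse and did not pass. Acot4 was nearly absent and could not be tested. In numbers, 8 of the 9 genes had enough reads for edgeR's filter, and 3 of these 8 had an adjusted p under 0.05 over all 15949 genes tested, 2 higher and 1 lower. Among all tested genes the share with an adjusted p under 0.05 was 1.34%, with 0.809% higher and 0.527% lower, and nothing about the group is read from that comparison. The counts of the 2 diets did not overlap for the same 3 genes, and over all tested genes they did not overlap for 4.34%, with the ketogenic mice higher for 2.4% and lower for 1.94%. The median log2 fold change was 0.09 over the 8 genes and −0.01 over all tested genes. Throughout, log2 fold changes are ketogenic over control, counts were normalized by the trimmed mean of M-values (TMM), and adjusted p-values are those of edgeR's quasi-likelihood test, corrected over all tested genes by the Benjamini-Hochberg method.

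**Figure D1:**
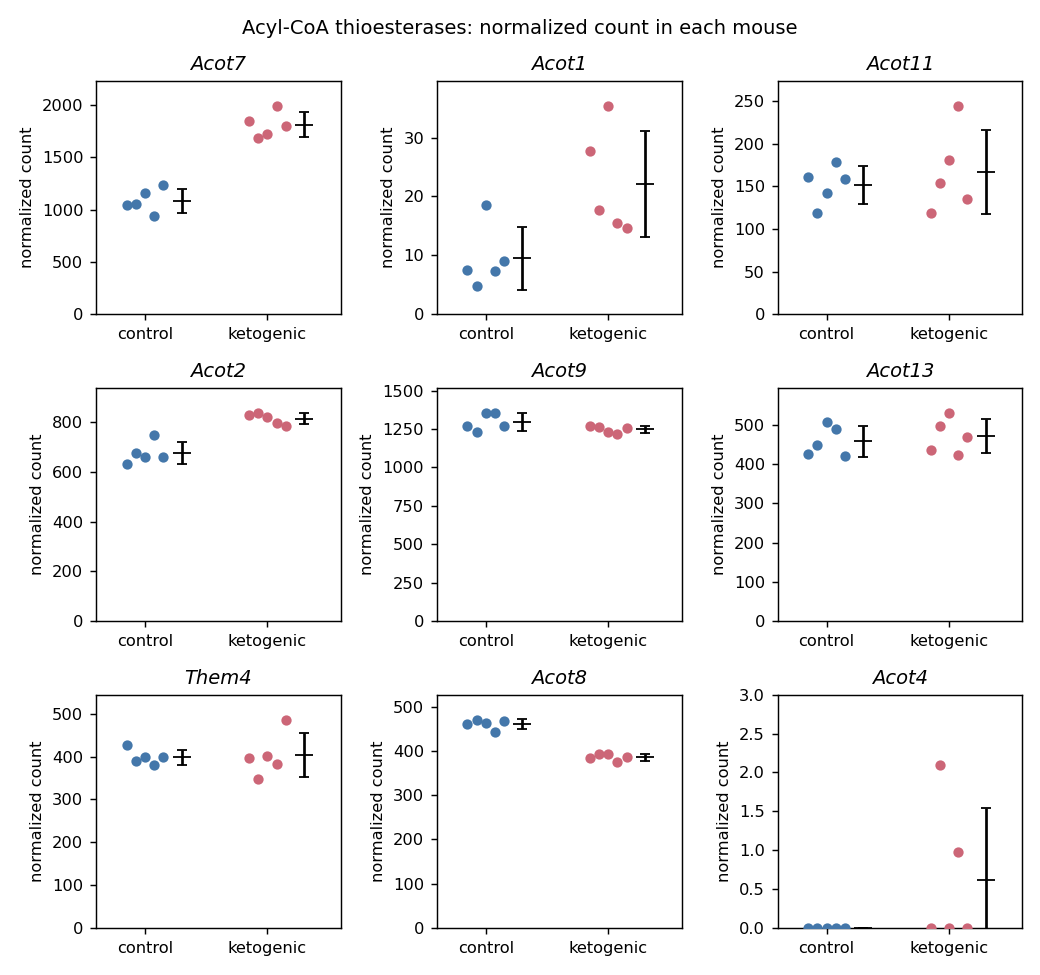
Normalized count of each of the 9 thioesterase genes (vertical axis, TMM-normalized reads, from 0) in every mouse on the control diet (blue) and the ketogenic diet (red), with the mean and SD of 5 mice as a black bar. The 5 ketogenic mice lie above all control mice for Acot7 and Acot2 and below them for Acot8, while the diets overlap for the other genes, and Acot4 has reads in 2 mice.

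Among the cytosolic enzymes, Acot7 showed the clearest difference. ACOT7 is a thioesterase with a preference for arachidonoyl-CoA and other long-chain substrates, best known from brain. The gene lies on chromosome 4 of GRCm38 at 152178134-152271855 on the plus strand, in 12 exonic blocks. Normalized counts in the control mice 1 to 5 were 1042.2, 1051.6, 1157.3, 944.0 and 1238.1. In the ketogenic mice 1 to 5 they were 1850.0, 1685.3, 1724.0, 1992.3 and 1805.9. Every ketogenic mouse was above every control mouse, and the lowest ketogenic value lay well clear of the highest control value. The means were 1086.7 ± 113 (SD, n = 5) and 1811.5 ± 120 (SD, n = 5), a log2 fold change of 0.74 with a standard error of 0.0712 and a 95% interval of 0.58 to 0.89 (adjusted p = 0.00109). By p-value Acot7 ranked 3rd of all tested genes. It kept an adjusted p under 0.05 in all 22 alternative fits, with log2 fold changes of 0.69 to 0.92, and with the cardiomyocyte marker score as a covariate its log2 fold change was 0.72 (adjusted p = 0.0154). Acot7 is a gene that neurons also express, and of 8 Schwann cell and neuron markers Sox10, Th and Snap25 were among those that had at most 10 reads in every mouse. The summed normalized counts of the 8 were 345.6 to 665.3 on the control diet and 429.7 to 560.4 on the ketogenic diet. Of the 4 that could be tested, 2 had a positive and 2 a negative log2 fold change, with a median of −0.13. One of the 8, the neuronal ubiquitin hydrolase Uchl1, was higher on the ketogenic diet (150.0 ± 14 against 233.0 ± 23.8 normalized counts, SD, n = 5 each, adjusted p = 0.0118), and its part in the Acot7 difference was not tested. No stretch of 50 bases, the length of a read, in the GENCODE M21 transcripts of Acot7 occurs in another gene.

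The sequence upstream of the genes with a diet difference, and of Acot1 as the best-known PPARα target of the family, is shown because PPARα targets were compared alongside them. Windows of 250 bases before the RefSeq start site (GRCm38.p6) are written 5′ to 3′ on the strand of the gene, with capitals marking matches to the GC box GGGCGG or the CCAAT box CCAAT on either strand.
Acot7, chr4:152185358-152185607, plus strand: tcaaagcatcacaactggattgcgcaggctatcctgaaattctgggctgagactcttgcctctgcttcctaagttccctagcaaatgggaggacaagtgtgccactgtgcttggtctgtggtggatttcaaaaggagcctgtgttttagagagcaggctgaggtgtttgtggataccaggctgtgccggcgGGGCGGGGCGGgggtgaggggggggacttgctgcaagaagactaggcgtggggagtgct
Acot2, chr12:83987611-83987860, plus strand: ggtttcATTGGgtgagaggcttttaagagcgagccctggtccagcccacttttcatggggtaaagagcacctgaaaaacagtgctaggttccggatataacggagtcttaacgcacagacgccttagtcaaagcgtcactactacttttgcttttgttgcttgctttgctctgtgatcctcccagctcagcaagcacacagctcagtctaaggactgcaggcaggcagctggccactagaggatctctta
Acot8, chr2:164804882-164805131, minus strand: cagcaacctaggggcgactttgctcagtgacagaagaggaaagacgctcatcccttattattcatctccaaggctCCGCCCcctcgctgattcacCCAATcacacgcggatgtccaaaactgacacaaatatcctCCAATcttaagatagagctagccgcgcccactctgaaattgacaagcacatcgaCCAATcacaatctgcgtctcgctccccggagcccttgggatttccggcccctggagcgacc
Acot1, chr12:84009252-84009501, plus strand: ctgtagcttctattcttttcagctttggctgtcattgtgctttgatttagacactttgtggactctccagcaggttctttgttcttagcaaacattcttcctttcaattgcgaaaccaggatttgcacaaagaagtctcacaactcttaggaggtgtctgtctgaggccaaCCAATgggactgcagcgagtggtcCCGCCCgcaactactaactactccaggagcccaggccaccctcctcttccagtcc
The Acot7 window holds 2 GC boxes that overlap, at −59 to −54 and at −54 to −49 from the start site, and no CCAAT box. This RefSeq start lies inside the GENCODE gene, whose own start is at 152178134. The Acot2 window holds 1 CCAAT box at −244 to −240. The Acot8 window holds 3 CCAAT boxes, at −155 to −151, −115 to −111 and −61 to −57, and 1 GC box. The Acot1 window holds 1 of each. Of all 32851 RefSeq promoters of 300 bases, 35.658% hold a GC box and 37.408% a CCAAT box. The consensus for PPAR with its partner RXR, a direct repeat of 2 AGGTCA half-sites with 1 base between them, was searched on both strands in the 9 promoters available for 8 of the 9 genes (Acot13 had none) and was in none of them, and it is in 0.04% of all promoters. A single half-site, in 16.255% of all promoters, was found for Acot4 alone of the 8 genes. Matches are letters in a window and do not mark binding.

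Acot1, the cytosolic long-chain enzyme, had a much lower level. Read counts in the control mice 1 to 5 were 7, 5, 18, 7 and 9, and in the ketogenic mice 1 to 5 they were 28, 17, 36, 16 and 16. Control mouse 3 fell among the ketogenic values, and the other control mice lay below all of them. The log2 fold change was 1.22 with a standard error of 0.386 and a 95% interval of 0.38 to 2.06 (unadjusted p = 0.00829, adjusted p = 0.136). Without control mouse 3 it was 1.61, with the cardiomyocyte marker score as a covariate it was 0.87 (adjusted p = 0.451), and the adjusted p was between 0.0855 and 0.451 in the alternatives. A difference in Acot1 was not detectable after adjustment at this depth.

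Some reads of Acot1 are hard to place because Acot2 lies next to it on chromosome 12 (Acot2 at 83987861-83993873, Acot1 at 84009490-84018371, both on the plus strand) and has almost the same coding sequence. Over whole transcripts, 13.562% of the distinct stretches of 50 bases in Acot1 occur in Acot2, and 24.546% of those in Acot2 occur in Acot1. The coding parts are more alike. Over 1236 aligned coding bases the pair is 95.6% identical, with a longest identical run of 273 bases. Of 1183 windows of 50 aligned coding bases, the length of a read, 527 (44.5%) are identical, and the median window differs at 1 base. A window of that kind, at coding bases 30 to 79 of Acot1 and 153 to 202 of Acot2 in GENCODE M21 transcripts, is given with the differing base in capitals.
Acot1: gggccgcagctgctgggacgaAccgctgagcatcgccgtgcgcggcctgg
Acot2: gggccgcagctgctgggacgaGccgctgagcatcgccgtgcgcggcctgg
The normalized count of Acot1 was 0.704% to 2.82% of that of Acot2 in the control mice and 1.86% to 4.31% in the ketogenic mice. How the authors' counting treated reads that match both genes is not given in the sources used here, so Acot1 and Acot2 values are uncertain by the reads they share.

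Acot11 (THEM1), an enzyme induced by cold in brown fat, was the other low gene of the cytosolic set. Its normalized counts ranged from 118.0 to 178.0 with a median of 158.0 in the control mice and from 118.0 to 244.0 with a median of 154.0 in the ketogenic mice. The diets covered nearly the same range, apart from ketogenic mouse 4 at 244.0. The log2 fold change of 0.14 had a 95% interval of −0.27 to 0.54 (adjusted p = 0.741), and it turned to −0.04 without ketogenic mouse 4 and to −0.25 with the cardiomyocyte marker score as a covariate. Acot11 shares 1263 exonic bases with Fam151a on the opposite strand, and reads from there cannot be assigned to a strand. Fam151a itself had 0.0 to 4.93 normalized counts in any mouse. How reads in the shared bases were counted is not given in the sources used here, so this low count does not settle their origin.

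Of the mitochondrial enzymes, Acot2 was the one that rose. ACOT2 hydrolyses long-chain acyl-CoA in the mitochondrial matrix. Normalized counts in the control mice 1 to 5 were 630.0, 677.0, 660.0, 746.0 and 660.0, and in the ketogenic mice 1 to 5 they were 827.0, 836.0, 820.0, 797.0 and 785.0. The 5 ketogenic mice were all above the highest control, which was mouse 4, and their values were closer together. Their variance was 0.555 of the mean, below what counting error alone would give on average. The narrow spread is therefore not read as close agreement between mice. The log2 fold change was 0.27 with a standard error of 0.0538 and a 95% interval of 0.15 to 0.39 (adjusted p = 0.0375). The size was stable at 0.25 to 0.31 in 22 alternative fits, but the call was not. Adjusted p was 0.0515 with upper quartile factors, 0.182 with the cardiomyocyte marker score as a covariate (log2 fold change 0.26), and 0.0824 without control mouse 1, which had the high macrophage markers. When each mouse was left out in turn, Acot2 passed in 2 of 10 fits, those without control mouse 4 and without ketogenic mouse 2.

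Acot9, a mitochondrial enzyme acting on short-chain and long-chain acyl-CoA, had one of the narrowest estimates. Normalized counts ranged from 1228.0 to 1354.9 (median 1270.3) on the control diet and from 1217.7 to 1271.8 (median 1258.3) on the ketogenic diet. The ketogenic values fell within the lower part of the control range and just below it. The 95% interval of the log2 fold change, −0.14 to 0.03 around −0.05, left room for a fall to 0.907 of the control level and for a rise to 1.02 times it (adjusted p = 0.512). Acot9 also has a near-copy, the intronless Acot10 on chromosome 15, with 97.2% identity over 1317 coding bases and 316 of 1268 windows of 50 coding bases (24.9%) identical. Over whole transcripts, 15.154% of the distinct stretches of 50 bases in Acot9 occur in Acot10. Coding bases 20 to 69 of the pair differ at 1 base, in capitals, and a read from there can be told apart by that base alone.
Acot9: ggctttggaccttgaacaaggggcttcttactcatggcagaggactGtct
Acot10: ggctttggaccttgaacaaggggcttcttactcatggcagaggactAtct
Acot10 had 312.0 to 379.0 normalized counts on the control diet and 325.0 to 340.0 on the ketogenic diet (log2 fold change −0.05, 95% interval −0.2 to 0.1, adjusted p = 0.73). Relative to Acot9 it stood at 26.6% ± 1.38 (SD, n = 5) on the control diet and 26.6% ± 0.915 (SD, n = 5) on the ketogenic diet.

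Acot13 (THEM2), a small mitochondria-associated enzyme that binds the phosphatidylcholine transfer protein, had normalized counts of 420.0 to 508.0 (median 449.0) on the control diet and 425.0 to 531.0 (median 469.0) on the ketogenic diet. The log2 fold change was 0.04 with a 95% interval of −0.14 to 0.22 (adjusted p = 0.834), and it was −0.07 with the cardiomyocyte marker score as a covariate. Them4, also called CTMP, is a mitochondrial thioesterase named for its binding to the kinase AKT. It ranged from 380.0 to 427.0 (median 398.0) on the control diet and from 347.0 to 487.0 (median 398.0) on the ketogenic diet. Ketogenic mice 2 and 5 lay outside the control range of Them4 on opposite sides, and the log2 fold change of 0.02 (95% interval −0.17 to 0.21, adjusted p = 0.933) was −0.05 without ketogenic mouse 5. Binding partners did not pass the test either: the log2 fold change was 0.13 for Pctp, the phosphatidylcholine transfer protein (adjusted p = 0.394), and −0.05 and −0.08 for Akt1 and Akt2 (adjusted p = 0.545 and 0.709).

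In peroxisomes, Acot8 was lower on the ketogenic diet. ACOT8 has a broad substrate range there, which includes the products of chain shortening. Its gene lies on chromosome 2 at 164792765-164804882 on the minus strand. Normalized counts in the control mice 1 to 5 were 460.0, 471.0, 464.0, 443.0 and 468.0, and in the ketogenic mice 1 to 5 they were 384.0, 394.0, 393.0, 374.0 and 385.0. No ketogenic mouse reached the lowest control mouse, with an SD within a diet of 2.35% of the mean on the control diet and 2.08% on the ketogenic diet. The variance was 0.254 and 0.166 of the mean, below the value of 1 that counting error alone would give on average, so the narrow spread is not read as close agreement between mice. The log2 fold change was −0.26 with a standard error of 0.0537 and a 95% interval of −0.37 to −0.14 (adjusted p = 0.0427). It stayed between −0.27 and −0.22 in 22 alternative fits, but the adjusted p was 0.101 without a filter on low counts and 0.199 with the cardiomyocyte marker score as a covariate (log2 fold change −0.25), and 1 of 10 fits with a mouse left out, that without ketogenic mouse 2, kept the call. Acot8 overlaps Snx21, a sorting nexin gene on the opposite strand, by 246 exonic bases, and reads from there cannot be assigned to a strand. Snx21 had 345.0 ± 36.3 normalized counts on the control diet and 293.0 ± 67.7 on the ketogenic diet (SD, n = 5 each, log2 fold change −0.24, adjusted p = 0.41).

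Acot4, whose product hydrolyses succinyl-CoA and dicarboxylic acyl-CoA in mouse peroxisomes, had 0 reads in all control mice. On the ketogenic diet mouse 2 had 2 reads, mouse 4 had 1 read and the others had 0. A count of 0 allows up to 3 reads per library by counting error alone, so neither diet was above that limit and no fold change is given.

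**Figure D2:**
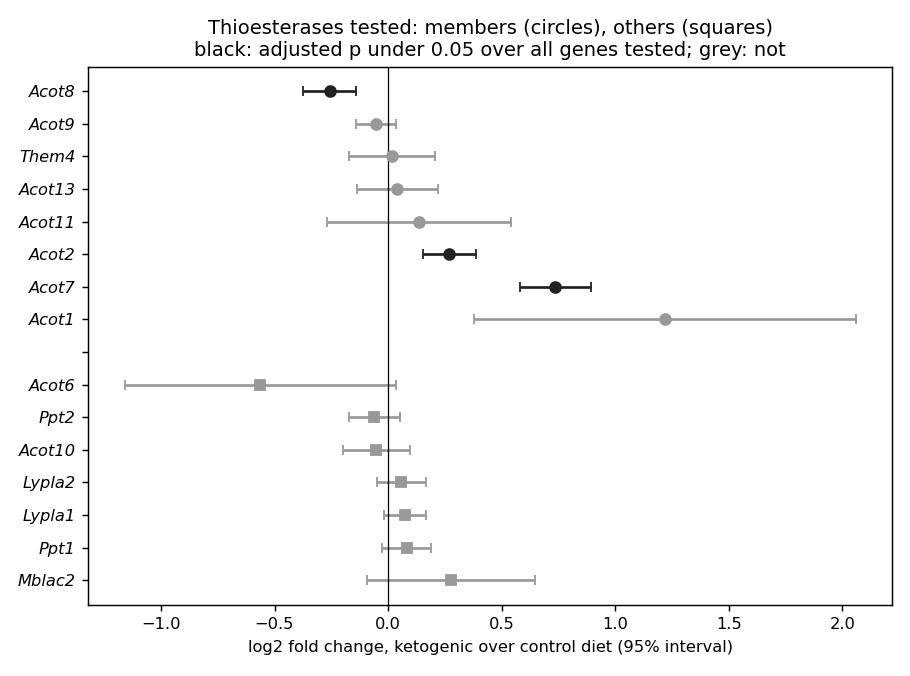
Log2 fold change, ketogenic over control diet (horizontal axis), of the 8 thioesterases of the group that were tested (circles) and of 7 other thioesterases (squares), with 95% intervals from edgeR; black marks an adjusted p under 0.05 over all genes. Acot7 at 0.74, Acot2 at 0.27 and Acot8 at −0.26 are black, and the wide interval of Acot1, 0.38 to 2.06, stands out beside the narrow ones of Acot9 and Lypla1.

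Levels of different genes were compared per length, as RPKM, the reads of a gene scaled to its length and to the library's total. On the control diet Acot13 was highest at 54.3 ± 4.57 RPKM, followed by Acot7 at 26.8 ± 2.88, Acot2 at 26.2 ± 1.63 and Acot9 at 25.1 ± 1.02 (SD, n = 5 each). Neighbours among the latter trio overlapped: Acot7 was above Acot2 in 3 of 5 mice, and Acot2 above Acot9 in 3 of 5. Below them came Acot8 at 10.2 ± 0.293, Them4 at 6.83 ± 0.298, Acot11 at 1.21 ± 0.175, Acot1 at 0.519 ± 0.294 and Acot4 at 0. On the ketogenic diet the order was the same, but Acot7, at 45.0 ± 3.01 RPKM, no longer overlapped Acot2 at 31.9 ± 0.78, and Acot2 no longer overlapped Acot9 at 24.4 ± 0.417. Acot8, at 8.64 ± 0.175, came within the range of Them4, at 6.98 ± 0.895, though it was higher in all 5 mice. Acot1, at 1.22 ± 0.495 RPKM, overlapped Acot11, at 1.35 ± 0.399, as their ranges did on the control diet.

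**Figure D3:**
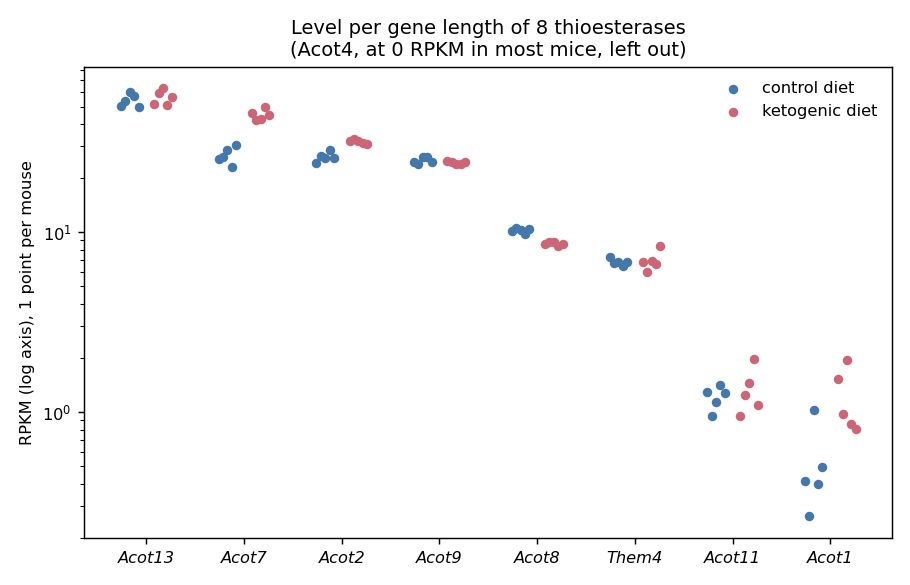
RPKM of 8 thioesterase genes (vertical axis, log scale), 1 point per mouse, control diet in blue and ketogenic diet in red, ordered from the highest to the lowest gene. Acot13 lies near 54.3 RPKM, and Acot7, Acot2 and Acot9 form a cluster near 26 RPKM on the control diet that spreads out on the ketogenic diet. Mean RPKM on the control and the ketogenic diet is 1.21 and 1.35 for Acot11, and 0.519 and 1.22 for Acot1.

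Summed by compartment, the 3 cytosolic genes had 28.5 ± 2.99 RPKM on the control diet and 47.6 ± 3.1 on the ketogenic diet (SD, n = 5 each). Ranges were 24.9 to 32.3 and 44.1 to 52.4, and most of both sums was Acot7. The 4 mitochondrial genes summed to 112.0 ± 6.22 RPKM and 120.0 ± 5.55, with overlapping ranges, and the peroxisomal genes to 10.2 ± 0.293 and 8.66 ± 0.182, nearly all of it Acot8. The cytosolic share of the RPKM of all 9 genes was 18.9% on the control diet and 27.1% on the ketogenic diet, the mitochondrial share 74.4% and 68.0%, and the peroxisomal share 6.78% and 4.93%. The order of genes depends on the gene lengths in the files, which were worked out from the counts and RPKM values. For several genes they exceed the exonic length in GENCODE M21: 3467 against 2124 bases for Acot7, 4406 against 2273 for Acot9 and 3847 against 1997 for Acot8. With the M21 lengths, an alternative added after the data had been seen, Acot7 would have 43.7 RPKM on the control diet and 73.5 on the ketogenic diet, and would pass Acot13 (52.6 and 54.6 RPKM) on the ketogenic diet. Acot9 would then have 48.7 and 47.3 RPKM and lie above Acot2 on both diets. A change of length does not alter the fold change of a single gene's RPKM between diets. The compartment sums and shares above hold for the lengths in the files and would change with other lengths.

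By the lengths in the files, 0 genes had a count above 110% of their start positions on both strands. Counts thus look as if they stop at 1 read per start position and strand, though no source used here names such a step. If they do, abundant short genes are counted less than fully. Acot13, with a length of 721 bases, filled up to 37.5% of its start positions, Acot7 up to 29.6%, Acot2 up to 19.6% and Acot9 up to 15.7%. By the M21 lengths these shares were 36.4%, 48.3%, 19.6% and 30.4%, so which gene is nearest to the ceiling depends on the length taken. After a correction for filled positions, which was added after the data had been seen, the log2 fold change was 0.83 for Acot7, 0.3 for Acot2 and −0.27 for Acot8, and all 3 kept an adjusted p under 0.05. With the M21 lengths in that correction, also added later, it was 0.92, 0.3 and −0.27, again with an adjusted p under 0.05 for all 3.

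The other 13 thioesterases examined gave no gene with an adjusted p under 0.05. Of these, 7 could be tested, and 4 had a positive and 3 a negative log2 fold change. The lysosomal palmitoyl-protein thioesterases Ppt1 and Ppt2 had log2 fold changes of 0.08 and −0.06 (adjusted p = 0.413 and 0.576), and the depalmitoylases Lypla1 and Lypla2 0.07 and 0.06 (adjusted p = 0.395 and 0.573). Mblac2, an acyl-CoA hydrolase of the metallo-β-lactamase family, had 0.28 (95% interval −0.09 to 0.65, adjusted p = 0.419). Acot6, in the chromosome 12 cluster with Acot2, Acot1, Acot4, Acot3 and Acot5, had −0.56 (95% interval −1.16 to 0.03, adjusted p = 0.308) on 10 to 30 reads per mouse. Acot3, Acot5, Them5, Them6 and Baat had at most 8 reads in any mouse. Acot12, the cytosolic acetyl-CoA hydrolase, had 6, 0, 4, 10 and 0 reads in the control mice 1 to 5 and 0 in every ketogenic mouse, and was not tested.

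Genes that make, bind or shuttle acyl-CoA were described next, since they supply or consume what thioesterases cleave. Of 17 such genes 15 were tested, none had an adjusted p under 0.05, and 5 had an unadjusted p under 0.05. Their median log2 fold change was 0.14, and 13 of the 15 were positive. Among all 15949 tested genes, 2844 had an unadjusted p under 0.05 and 7745 had a positive log2 fold change. The carnitine palmitoyltransferase Cpt1a had 0.27 (adjusted p = 0.112), with no overlap between the diets. The synthetases Acsl5 and Acsl4 had −0.01 and 0.1 (adjusted p = 0.947 and 0.213), and the acyl-CoA-binding protein Acbd5 had 0.11 (adjusted p = 0.382). Of 17 known PPARα targets 16 were tested and 6 rose, with none lower, while 0.809% of all tested genes rose. The median log2 fold change of the 16 was 0.2. Both lists were chosen with earlier results of these data known, and the difference between them was not tested. These were Pdk4, the pyruvate dehydrogenase kinase (log2 fold change 1.44, adjusted p = 0.000103), Ucp3, a mitochondrial carrier (2.21, adjusted p = 0.0178), Angptl4, an inhibitor of lipoprotein lipase (1.07, adjusted p = 0.00885), Fabp3, the heart fatty acid-binding protein (0.57, adjusted p = 0.0204), Acadl, a long-chain acyl-CoA dehydrogenase (0.52, adjusted p = 0.0393), and Plin2, a lipid droplet coat protein (0.33, adjusted p = 0.0012). Ucp3 rested on few reads, 5 to 25 per mouse on the control diet and 37 to 86 on the ketogenic diet. Its log2 fold change was 0.61 to 2.58 in the alternatives. Of the most abundant other targets, Lpl had 0.02 (adjusted p = 0.866). Cd36 had −0.03 (adjusted p = 0.717), but its counts reached 43.2% of the start positions by the length in the files and 101.0% by the M21 length, with a variance of the raw counts below their mean, so they may lie at the ceiling of 1 read per position and no absence of change is read from them. With the positions of the M21 length its log2 fold change was 0.25 (adjusted p = 0.022). That correction takes at most 99% of positions as filled, and every ketogenic mouse but no control mouse was set to this cap. The 0.25 therefore depends on where the cap is placed and is not read as a diet difference. With the cardiomyocyte marker score as a covariate Pdk4 and Plin2 kept their calls (log2 fold changes 1.38 and 0.32), while the adjusted p was 0.146 for Ucp3, 0.0863 for Angptl4, 0.161 for Fabp3 and 0.105 for Acadl. Set beside these, the log2 fold change of Acot2, 0.27, was below each of the 6 in this fit, and differences between genes were not tested.

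For each of the 3 genes with an adjusted p under 0.05, the 3 tested genes with the most similar pattern over the 10 mice were taken, measured as the root mean squared difference of z-scored log2 CPM. For Acot7 these were Reep3, Efnb1 and Btnl9, with differences of 0.227, 0.239 and 0.259. For Acot2 they were Fgf2, Sdk2 and Hsd17b12, with 0.301, 0.307 and 0.322. For Acot8 they were Gm16045, 4921531C22Rik and Smu1, with 0.21, 0.286 and 0.301. All 9 genes had a fold change in the same direction as the thioesterase they resemble, which the measure itself favours. The 3 lists do not share a gene.

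**Figure D4:**
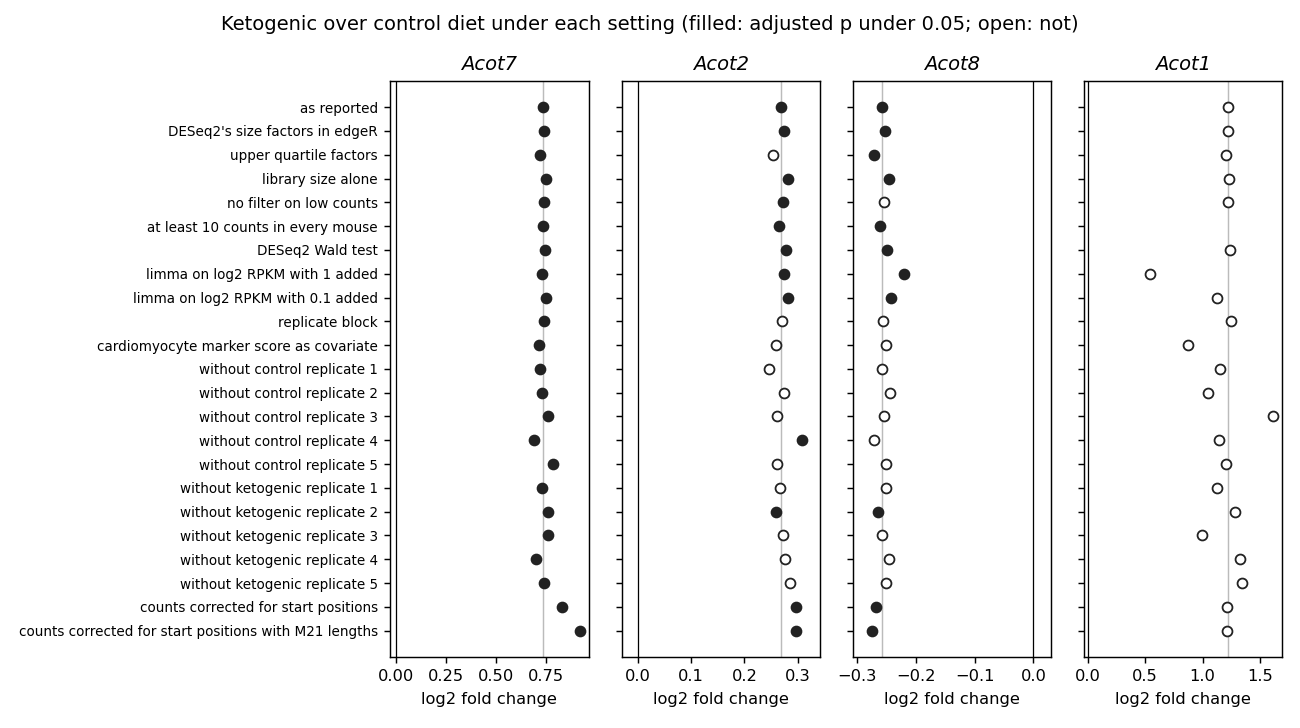
Log2 fold change, ketogenic over control diet (horizontal axes, each with its own range), of Acot7, Acot2, Acot8 and Acot1 as reported and under each alternative fit, with filled points for an adjusted p under 0.05 and the grey line at the reported value. Acot7 is filled in every fit at 0.69 to 0.92, Acot2 and Acot8 hardly move but change between filled and open, and Acot1 is open throughout at 0.54 to 1.61.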

How the data were processed

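The authors deposited raw counts, the whole reads counted on each gene in each mouse, and RPKM values. The length of each gene in the files was worked out from its counts and RPKM values, as the median over mice. With that length, RPKM matched the counts scaled to length and counted reads in 100% of entries within 0.1%. The match shows a fixed length per gene and is no check of that length. The submitters' processing notes name bcl2fastq 2.17.1.14, STAR 2.3, HTSeq 0.6.0 and the mm10 genome, without order or role; the annotation release and the handling of duplicate reads are not given in the sources used here. Symbols and positions came from GENCODE M21 on GRCm38 (46488 of 46983 identifiers matched).

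Diets were compared in R 4.3.3 with edgeR 4.0.16 (TMM factors, filterByExpr, quasi-likelihood F-test, Benjamini-Hochberg adjustment over 15949 genes), with each column's diet and number taken from the labels. Standard errors are the log2 fold change over the square root of F. The study used DESeq2, run here as version 1.42.0 as an alternative. The further alternatives were other size factors, other filters, limma 3.58.1 on log2(RPKM + 1) or log2(RPKM + 0.1), the replicate number as a block, the cardiomyocyte marker score as a covariate, and each mouse left out. Corrections for start positions and for gene lengths were chosen after seeing the data. The fits were tested on simulated data.

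Members and gene lists were chosen with earlier results of these data known. Genes named are all members, the other thioesterases, context genes with an adjusted p under 0.05 and up to 4 others per context list with the largest mean count, and the 3 genes most like each called member. Snx21, Fam151a, Uchl1 and Cd79a were added after their values were seen. A few context genes and markers are left unnamed. Promoter sequences are from RefSeq on GRCm38.p6, handled with Python 3.11.15 and Biopython 1.88. Depth was 10885154 to 12710861 counted reads per mouse. The p-values of edgeR weigh the diet difference against a spread between mice that is estimated in part from other genes.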

Additional observations from a re-analysis of the deposited data

Results flagged for a closer look

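Among 38 sets of 5 mice examined for a value far from the rest (8 thioesterases, depth, the cardiomyocyte score and the summed markers of each cell type, in each diet), 3 had one whose gap to its nearest neighbour exceeded 0.71 of the whole range, where chance gives about 5%. No set was a thioesterase. The macrophage markers summed to 7237.3 normalized counts in control mouse 1, against 2202.4 to 3594.0 in the other control mice, and to 3559.8 in ketogenic mouse 4, against 1926.8 to 2236.8. The endothelial markers summed to 56497.5 in control mouse 2, against 59373.5 to 60245.0 in the other control mice. Without control mouse 1 the log2 fold change was 0.72 for Acot7 (adjusted p = 0.00324), 0.25 for Acot2 (adjusted p = 0.0824) and −0.26 for Acot8 (adjusted p = 0.0832), all from edgeR. Without ketogenic mouse 4 it was 0.7 (adjusted p = 0.00264), 0.28 (adjusted p = 0.0704) and −0.24 (adjusted p = 0.0942). The part of macrophage RNA in these values was not tested.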

How the results depend on the processing

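Of 15949 genes, 213 had an adjusted p under 0.05. The count was 806 with DESeq2's Wald test, 45 with the cardiomyocyte marker score as a covariate, and 86 (without control mouse 2) to 492 (without ketogenic mouse 2) with a mouse left out. The 3 thioesterases called became 1, Acot7, with that covariate, and 1 to 3 with a mouse left out. The cardiomyocyte score difference of 1.06 was 0.945 (without control mouse 2) to 1.27 with a mouse left out, and its p fell under 0.05 without control mouse 3 (1.2) and without ketogenic mouse 1 (1.27). Directions turned for Acot11 (−0.25 with the covariate, −0.04 to 0.24 with a mouse left out, negative without ketogenic mouse 4), Acot13 (−0.07 with the covariate) and Them4 (−0.05 to 0.07 with a mouse left out, negative without ketogenic mouse 5), none of which was called. With the replicate number as a block, 113 genes and 1 thioesterase (Acot7) were called, and Acot2 and Acot8 had adjusted p of 0.0908 and 0.107. The numbers do not pair the mice: deviations of mice with the same number correlated at 0.1143, 0.0562, 0.0508, −0.1875 and −0.0592 over 7398 genes, and replicate 1 alone matched its own number best. Cd36 turned from −0.03 to 0.25 with the start-position correction on M21 lengths, where every ketogenic but no control mouse was set to its cap of 99% of positions. Lpl turned from 0.02 to −0.06 with the covariate and to −0.01 to 0.05 with a mouse left out (negative without control mouse 2 or ketogenic mouse 2). Acot1 and Acot4 are limited by their few reads. The causes of these shifts were not tested.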
